A study of Mus musculus with 6 samples.

Results

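The genes described here encode the nuclear subunits of the 5 complexes of oxidative phosphorylation. They were taken as all protein-coding nuclear genes whose symbols begin with Nduf followed by a, b, c, s or v and a number, or with Uqcr or Atp5, together with Sdha to Sdhd and the cytochrome oxidase subunits Cox4 to Cox8. The assembly factors named Ndufaf and the genes Ndufa4l2 and Cox4i2 were left out by the rule. It found 82 of the 38561 genes in the count tables: 35 in complex I, 4 in complex II, 8 in complex III, 18 in complex IV (Ndufa4 among them) and 17 in complex V. Of these, 80 passed the filter on low counts. Cox7b2 and Cox8c did not, with 1 library of NG2 cells at 0.115 CPM for Cox7b2, the others at 0, and all libraries at 0 for Cox8c. The names describe the proteins, and 2 subunits by function, Ndufab1 and Cyc1, have symbols outside the rule and are given among the other genes of the pathway.

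Oxidative phosphorylation takes place in the inner mitochondrial membrane. Complex I (NADH dehydrogenase) and complex II (succinate dehydrogenase, also an enzyme of the TCA cycle) pass electrons to coenzyme Q, complex III passes them on to cytochrome c, and complex IV (cytochrome c oxidase) gives them to oxygen. Complexes I, III and IV pump protons, and complex V (ATP synthase) uses the proton gradient to make ATP. Most subunits are encoded in the nucleus and made in the cytosol, while a small catalytic set of complexes I, III, IV and V is encoded by the mitochondrial genome, so assembly draws on transcripts of both genomes. Several complex IV subunits exist as a common isoform and a second one typical of heart and skeletal muscle or of testis.

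RNA was sequenced from 3 groups of 2 mouse libraries, taken from mice of the NG2-Cre;p53flox/flox strain (mixed background), whose Cre recombinase is under control of the NG2 gene (Cspg4) and acts on floxed Trp53. The first group was pericytes sorted with an NG2 antibody from skeletal muscle labelled normal (NG2 cells), the second osteosarcoma (replicate 1 from the right tibia, replicate 2 from the spine) and the third subcutaneous soft tissue sarcoma, both taken as primary tumours. All groups thus carry the Cre and the floxed alleles, and the labels give no age and do not say whether libraries came from separate animals, so the p-values reflect only the spread of these samples, which may in part be technical. The comparisons set each tumour type against the NG2 cells, the cells that the study proposes as an origin of mesenchymal tumours, and the tumour types against each other.

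Reads counted on genes ranged from 27693585 to 58126832 per library. Values are CPM, read counts relative to library size, scaled by TMM factors, and a gene was called when edgeR's quasi-likelihood test gave a Benjamini-Hochberg adjusted p under 0.05 over the 19024 genes tested. Trp53 stood at 101 and 82.3 CPM in the NG2 cells, 24.3 and 32.6 CPM in the osteosarcomas and 31.2 and 27.3 CPM in the soft tissue sarcomas. It fell in both tumour types (3.22-fold in osteosarcoma, edgeR adjusted p = 0.0172, and 3.13-fold in soft tissue sarcoma, adjusted p = 0.0199). Cspg4 itself was at 38.6 and 30.6 CPM in the NG2 cells, 118 and 37.7 CPM in the osteosarcomas and 188 and 88.7 CPM in the soft tissue sarcomas, and was not called. The NG2 cell libraries also held B and T lymphocyte transcripts, with 15 marker genes summing to 15085 and 7479 CPM against 76.8 to 390 CPM in the tumours, and 33.2% of their reads fell on no gene, against 19.5 to 23.4% in the tumours. Macrophage and osteoclast markers (12 genes) summed to 751 and 1608 CPM in the NG2 cells, 2778 and 21278 CPM in the osteosarcomas and 5254 and 4267 CPM in the soft tissue sarcomas. The 18 muscle fibre markers summed to 22.8 to 121 CPM in 5 libraries and to 1470 CPM in osteosarcoma replicate 2. The 14 granulocyte and erythroid markers summed to 800 and 3532 CPM in the NG2 cells and 51.9 to 655 CPM in the tumours. For 10 endothelial markers the sums were 1172 and 2109 CPM against 193 to 585 CPM, and for 10 osteoblast markers 206 and 197 CPM against 6416 to 71353 CPM. The 13 pericyte and mural markers stood at 1088 and 1696 CPM in the NG2 cells and 694 to 1830 CPM in the tumours. The part of these cell types in the results below was not tested, and in bulk RNA fewer cells of a type and less RNA per cell cannot be told apart. A number before the index letters in the names of the deposited counts differed between the groups (4 for NG2 cells, 5 for osteosarcoma, 6 for soft tissue sarcoma). It may mark the flow cell lane, which the labels used here do not say, and its part cannot be told apart from that of group.

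Nuclear subunit transcripts took a larger share of the RNA in the tumours than in the NG2 cells. The 82 genes together held 1.02% and 0.943% of gene counts in the NG2 cells, 1.93% and 2.65% in the osteosarcomas and 1.83% and 1.79% in the soft tissue sarcomas. Their summed level was 11150 and 9650.5 CPM in the NG2 cells, 19017 and 26507 CPM in the osteosarcomas and 17808 and 16700 CPM in the soft tissue sarcomas. All 4 tumour libraries lay above both NG2 cell libraries, with a ratio of group means of 2.19 for osteosarcoma and 1.66 for soft tissue sarcoma. Summed by complex, the osteosarcoma mean was 2.10 times the NG2 cell mean for complex I, 1.52 for complex II, 2.63 for complex III, 2.08 for complex IV and 2.35 for complex V. For soft tissue sarcoma the ratios were 1.70, 1.16, 1.69, 1.80 and 1.63 in the same order, so that complex II had the lowest ratio in both. The 13 subunits encoded by the mitochondrial genome did not follow. They summed to 17282 and 14021 CPM in the NG2 cells, 9909 and 13951 CPM in the osteosarcomas and 7650 and 8360 CPM in the soft tissue sarcomas. All 4 tumours were below both NG2 cell libraries, but osteosarcoma replicate 2 lay close to NG2 cell replicate 2. Of the 12 tested genes, 4 lay below in both osteosarcomas and 8 overlapped, where 32.4% of all genes tested lay below. In soft tissue sarcoma 11 lay below and 1 overlapped, where 34.6% of all genes tested lay below. The ratio of nuclear to mitochondrial subunit transcripts was 0.645 and 0.688 in the NG2 cells, 1.92 and 1.90 in the osteosarcomas and 2.33 and 2.00 in the soft tissue sarcomas, with the libraries of each tumour type above those of the NG2 cells.

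**Figure D1:**
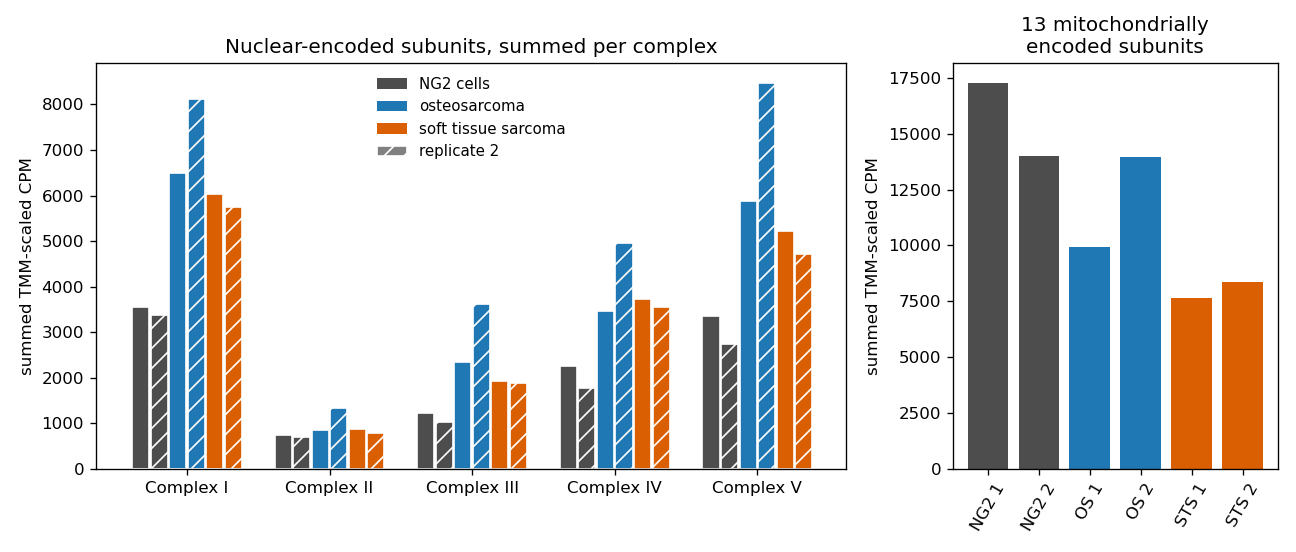
Summed CPM of the nuclear subunits of each complex (left) and of the 13 mitochondrially encoded subunits (right), 1 bar per library, hatched for replicate 2 on the left; OS is osteosarcoma and STS soft tissue sarcoma. Every nuclear sum is higher in the 4 tumour libraries than in both NG2 cell libraries, whereas the mitochondrially encoded sum is highest in the NG2 cells. Osteosarcoma replicate 2 is close to NG2 cell replicate 2 in that sum.

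In osteosarcoma, 39 of the 80 tested subunits rose against NG2 cells and 0 fell, where 10.5% of all genes tested were called higher and 11.0% lower. The members' median change was 1.13 on the log2 scale (2.19-fold), against 0.04 over all genes tested, and 76 of 80 had a value above 0. In 68 members both osteosarcoma libraries lay above both NG2 cell libraries and in 2 they lay below, where these arrangements held for 32.7% and 32.4% of all genes tested. Calls were spread over the complexes: 18 of 35 members of complex I, 2 of 4 of complex II, 4 of 8 of complex III, 4 of 16 tested of complex IV and 11 of 17 of complex V rose. In fits with fewer libraries, the share of all genes called higher, given in brackets, was below the 10.5% of the full fit each time. The number of calls changed as well, also when the library left out was a soft tissue sarcoma outside this comparison. It was 5 without NG2 cell replicate 1 (3.08% of all genes), 3 without NG2 cell replicate 2 (2.80%), 21 without osteosarcoma replicate 2 (7.74%), 47 without osteosarcoma replicate 1 (7.76%) and 11 without soft tissue sarcoma replicate 1 or 2 (3.46% and 3.34%), and it was 11 with only the 2 groups in the model (4.5%). Over the fits that each omit 1 library, the median ran from 0.89 to 1.36.

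**Figure D2:**
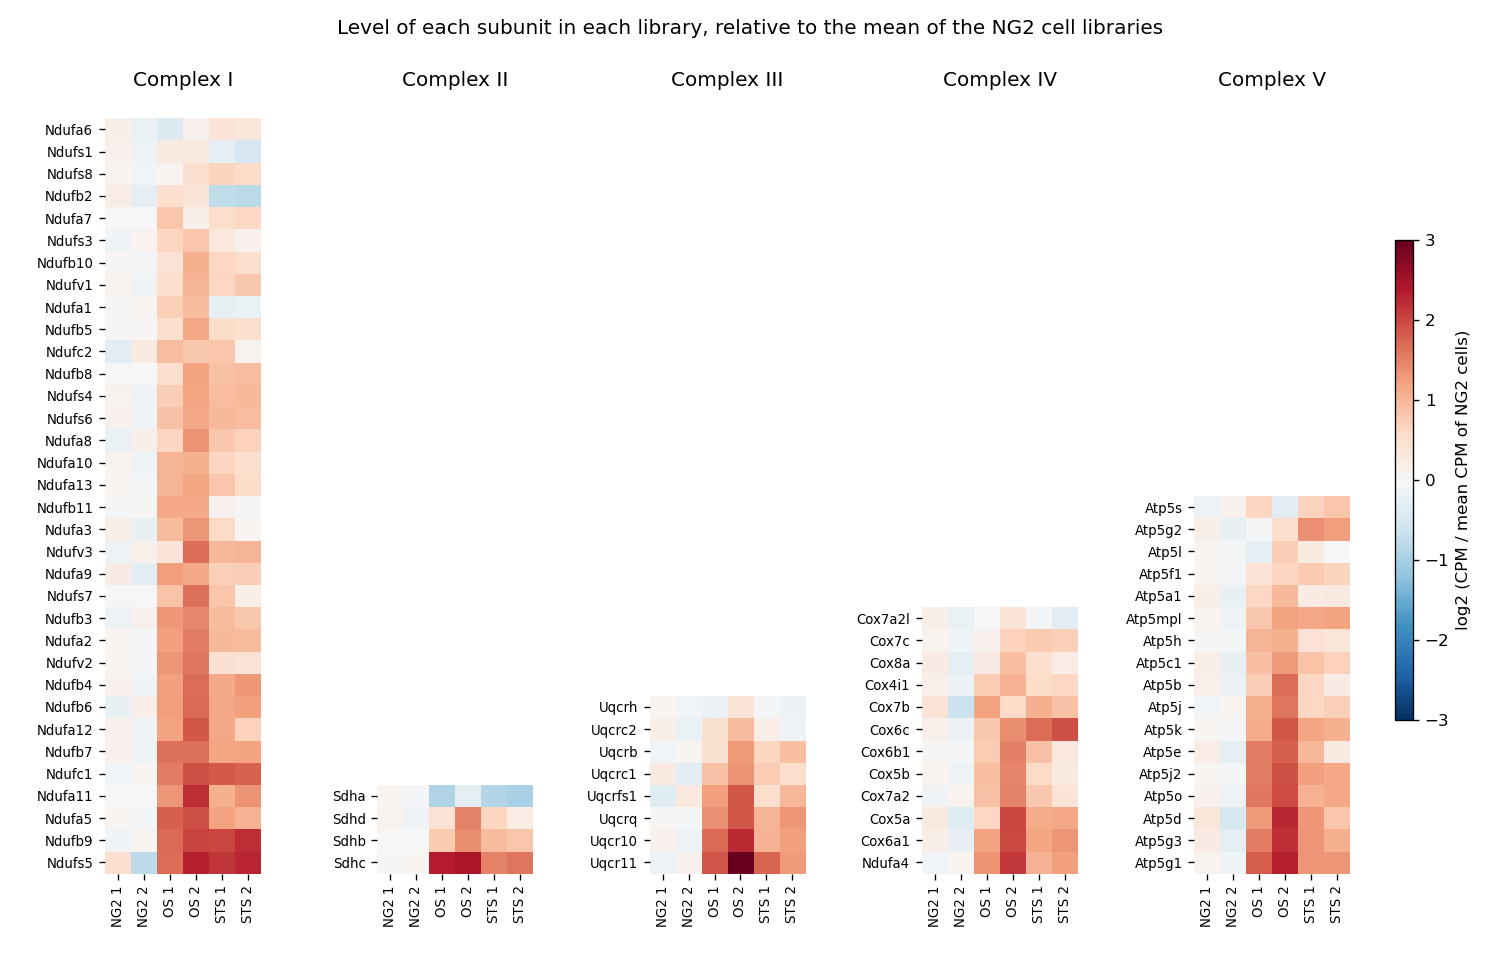
Level of tested subunits in each library as log2 of the CPM over the mean CPM of the NG2 cells (the 4 scarce isoforms Cox6a2, Cox6b2, Cox7a1 and Cox8b are left out), by complex, red for higher and blue for lower. Most rows are red in all 4 tumour libraries, most deeply in osteosarcoma replicate 2, and Sdha is blue in all 4.

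Among the subunits of complex I, Ndufs5, an accessory subunit of the intermembrane space side, had the largest change. Ndufs5 stood at 9.28 and 3.83 CPM in the NG2 cells, 20.9 and 32.5 CPM in the osteosarcomas and 28.8 and 31.7 CPM in the soft tissue sarcomas. It rose 4.08-fold in osteosarcoma (log2 2.03 ± 0.52, SE; edgeR adjusted p = 0.0433), with all 4 tumour libraries above both NG2 cell libraries. Ndufb9, an accessory subunit of the membrane arm, was at 85.9 and 97.7 CPM in the NG2 cells and at 299 and 372 CPM in the osteosarcomas, a 3.66-fold rise (edgeR adjusted p = 0.0104). Ndufa5, an accessory subunit of the matrix arm, measured 64.6 and 59.5 CPM in the NG2 cells and 215 and 237 CPM in the osteosarcomas. This was a 3.64-fold rise (edgeR adjusted p = 0.009003), and Ndufa5 and Sdhc were the members called in every alternative tried for this comparison, single libraries left out included. Ndufa11, Ndufc1 and Ndufb7, accessory subunits of the membrane part, rose 3.55-fold, 3.33-fold and 3.15-fold. Other members of complex I belong to its catalytic core. Ndufv2, which holds an iron-sulphur cluster next to the flavin site, was at 106 and 96.3 CPM in the NG2 cells and 251 and 301 CPM in the osteosarcomas (2.73-fold, edgeR adjusted p = 0.0159). Further core subunits had log2 values of 1.31 ± 0.38 for Ndufs7, 0.80 ± 0.28 for Ndufv1, 0.73 ± 0.25 for Ndufs3, 0.29 ± 0.26 for Ndufs8 and 0.27 ± 0.25 for Ndufs1, none of them called. Ndufs1, a core subunit, measured 81.01 and 66.5 CPM in the NG2 cells against 89.01 and 88.8 CPM in the osteosarcomas. Ndufa6 was the sole member of complex I with a value below 0 (-0.13 ± 0.30), and its libraries overlapped.

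Complex II divided. Its 4 subunits are the flavoprotein Sdha, the iron-sulphur protein Sdhb and the membrane anchors Sdhc and Sdhd, all encoded in the nucleus, and they form the complex in equal numbers. Sdhc (chr1:171127165-171150603 in GRCm38) had the smallest adjusted p of all members in osteosarcoma. Its level was 19.3 and 21.02 CPM in the NG2 cells, 103 and 110.0 CPM in the osteosarcomas and 56.3 and 60.8 CPM in the soft tissue sarcomas, with no overlap between any groups. Sdhc rose 5.28-fold in osteosarcoma (log2 2.40 ± 0.26, edgeR adjusted p = 0.00625) and 2.91-fold in soft tissue sarcoma (log2 1.54 ± 0.25, adjusted p = 0.0156). Sdhb measured 239 and 244 CPM in the NG2 cells, 413 and 631 CPM in the osteosarcomas and 467 and 427 CPM in the soft tissue sarcomas, a 2.16-fold rise in osteosarcoma (edgeR adjusted p = 0.0462) and a value of 0.89 ± 0.29 that was not called in soft tissue sarcoma. Sdhd was not called in either, at log2 1.05 ± 0.40 and 0.45 ± 0.40. Sdha (chr13:74322254-74350280) stood on the other side, at 366 and 336 CPM in the NG2 cells, 188 and 291 CPM in the osteosarcomas and 192 and 178 CPM in the soft tissue sarcomas. Every tumour library was below both NG2 cell libraries, yet neither difference was called (log2 -0.55 ± 0.30, edgeR adjusted p = 0.22 in osteosarcoma; log2 -0.93 ± 0.30, adjusted p = 0.0768 in soft tissue sarcoma). Within a library, where scaling and depth cancel, the ratio of Sdha to Sdhb CPM was 1.53 and 1.38 in the NG2 cells, 0.455 and 0.462 in the osteosarcomas and 0.412 and 0.416 in the soft tissue sarcomas. The ratio of Sdha to Sdhc CPM was 19.0 and 16.0 in the NG2 cells and 1.83 to 3.42 in the tumours. These ratios are not corrected for transcript length, so only their differences between libraries can be read. The pair was singled out after its values were seen.

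In complex III, 4 of the 8 members rose. Uqcr11, the smallest subunit of the complex, stood at 67.8 and 83.2 CPM in the NG2 cells, 280.1 and 658 CPM in the osteosarcomas and 254 and 183 CPM in the soft tissue sarcomas. Its 6.22-fold rise in osteosarcoma was the largest among all members (log2 2.64 ± 0.47, edgeR adjusted p = 0.0181), with replicate 2 well above replicate 1. Uqcr10, another small subunit, was at 194 and 161 CPM in the NG2 cells, 576 and 834 CPM in the osteosarcomas and 368 and 419 CPM in the soft tissue sarcomas. It rose 3.97-fold in osteosarcoma (edgeR adjusted p = 0.0122). Uqcrq, an accessory subunit, rose 3.11-fold, and Uqcrfs1, the Rieske iron-sulphur protein that takes part in catalysis, rose 2.996-fold, from 35.7 and 56.1 CPM in the NG2 cells to 107 and 168 CPM in the osteosarcomas. The core proteins Uqcrc1 and Uqcrc2 had log2 values of 1.13 ± 0.33 and 0.73 ± 0.30 and the small subunit Uqcrb one of 0.92 ± 0.34, none of them called. Uqcrh, the hinge protein, showed overlapping libraries, with 203 and 179.8 CPM in the NG2 cells and 169 and 249.6 CPM in the osteosarcomas. Cyc1, cytochrome c1, is the catalytic subunit of complex III whose symbol lies outside the rule. It rose 3.93-fold in osteosarcoma and 3.06-fold in soft tissue sarcoma (edgeR adjusted p = 0.00931 and 0.0159).

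Complex IV had the lowest share of calls in osteosarcoma. Ndufa4, first assigned to complex I and now counted with complex IV, was at 113 and 127 CPM in the NG2 cells, 305 and 525 CPM in the osteosarcomas and 248 and 281 CPM in the soft tissue sarcomas. It rose 3.46-fold in osteosarcoma (log2 1.79 ± 0.34, edgeR adjusted p = 0.020). The other calls were Cox6a1 (3.13-fold), Cox5b (2.31-fold) and Cox7a2 (2.31-fold), nuclear subunits around the catalytic core. Of these, Cox6a1 and Cox7a2 are the common isoforms of their pairs. Cox5b measured 129.6 and 109.5 CPM in the NG2 cells and 225 and 328 CPM in the osteosarcomas. Cox4i1, the main isoform of the largest nuclear subunit, was at 319 and 252 CPM in the NG2 cells, 480.4 and 589.7 CPM in the osteosarcomas and 418 and 436 CPM in the soft tissue sarcomas, apart between groups but not called (log2 0.91 ± 0.27 in osteosarcoma and 0.58 ± 0.27 in soft tissue sarcoma). Cox5a (log2 1.48 ± 0.51), Cox6b1 (1.18 ± 0.36), Cox7b (0.92 ± 0.43), Cox8a (0.61 ± 0.35) and Cox7c (0.43 ± 0.29) were likewise above 0 in osteosarcoma and not called. Cox7a2l, which takes part in joining complexes III and IV, had overlapping libraries in both comparisons with NG2 cells.

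Complex V, the ATP synthase, had the highest share. The membrane ring of c subunits is encoded by Atp5g1, Atp5g2 and Atp5g3, which give the same mature protein. Atp5g1 stood at 121 and 103 CPM in the NG2 cells, 398 and 563 CPM in the osteosarcomas and 282 and 282 CPM in the soft tissue sarcomas. It rose 4.28-fold in osteosarcoma (log2 2.10 ± 0.29, edgeR adjusted p = 0.009804) and 2.51-fold in soft tissue sarcoma (log2 1.33 ± 0.28, adjusted p = 0.0292). Atp5g3 rose 3.76-fold in osteosarcoma, from 130.4 and 90.6 CPM to 323 and 508 CPM. Atp5g2 was different: it stood at 40.3 and 30.6 CPM in the NG2 cells, 34.4 and 50.03 CPM in the osteosarcomas and 91.4 and 84.6 CPM in the soft tissue sarcomas, overlapped between NG2 cells and osteosarcoma (log2 0.25 ± 0.31) and rose 2.48-fold in soft tissue sarcoma (log2 1.31 ± 0.31, edgeR adjusted p = 0.0381). The ratio of Atp5g1 to Atp5g2 CPM was 3.01 and 3.38 in the NG2 cells, 11.6 and 11.3 in the osteosarcomas and 3.09 and 3.33 in the soft tissue sarcomas, so that the osteosarcomas stood apart and the other groups overlapped. The catalytic head is formed by the alpha and beta subunits Atp5a1 and Atp5b. They stood at 706 and 537 CPM and 509 and 404 CPM in the NG2 cells and 961 and 1218 CPM and 768 and 1449 CPM in the osteosarcomas. Neither was called (log2 0.81 ± 0.28 and 1.28 ± 0.39). The central stalk subunits Atp5c1, Atp5d and Atp5e all rose in osteosarcoma, by 2.15-fold, 3.61-fold and 3.18-fold. In the peripheral stalk Atp5o rose 3.42-fold, Atp5j 2.55-fold and Atp5h 2.06-fold, while Atp5f1 was not called (0.53 ± 0.25). Atp5j2, Atp5k and Atp5mpl, small membrane subunits, rose 3.32-fold, 2.904-fold and 2.02-fold, while Atp5l had overlapping libraries.

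**Figure D3:**
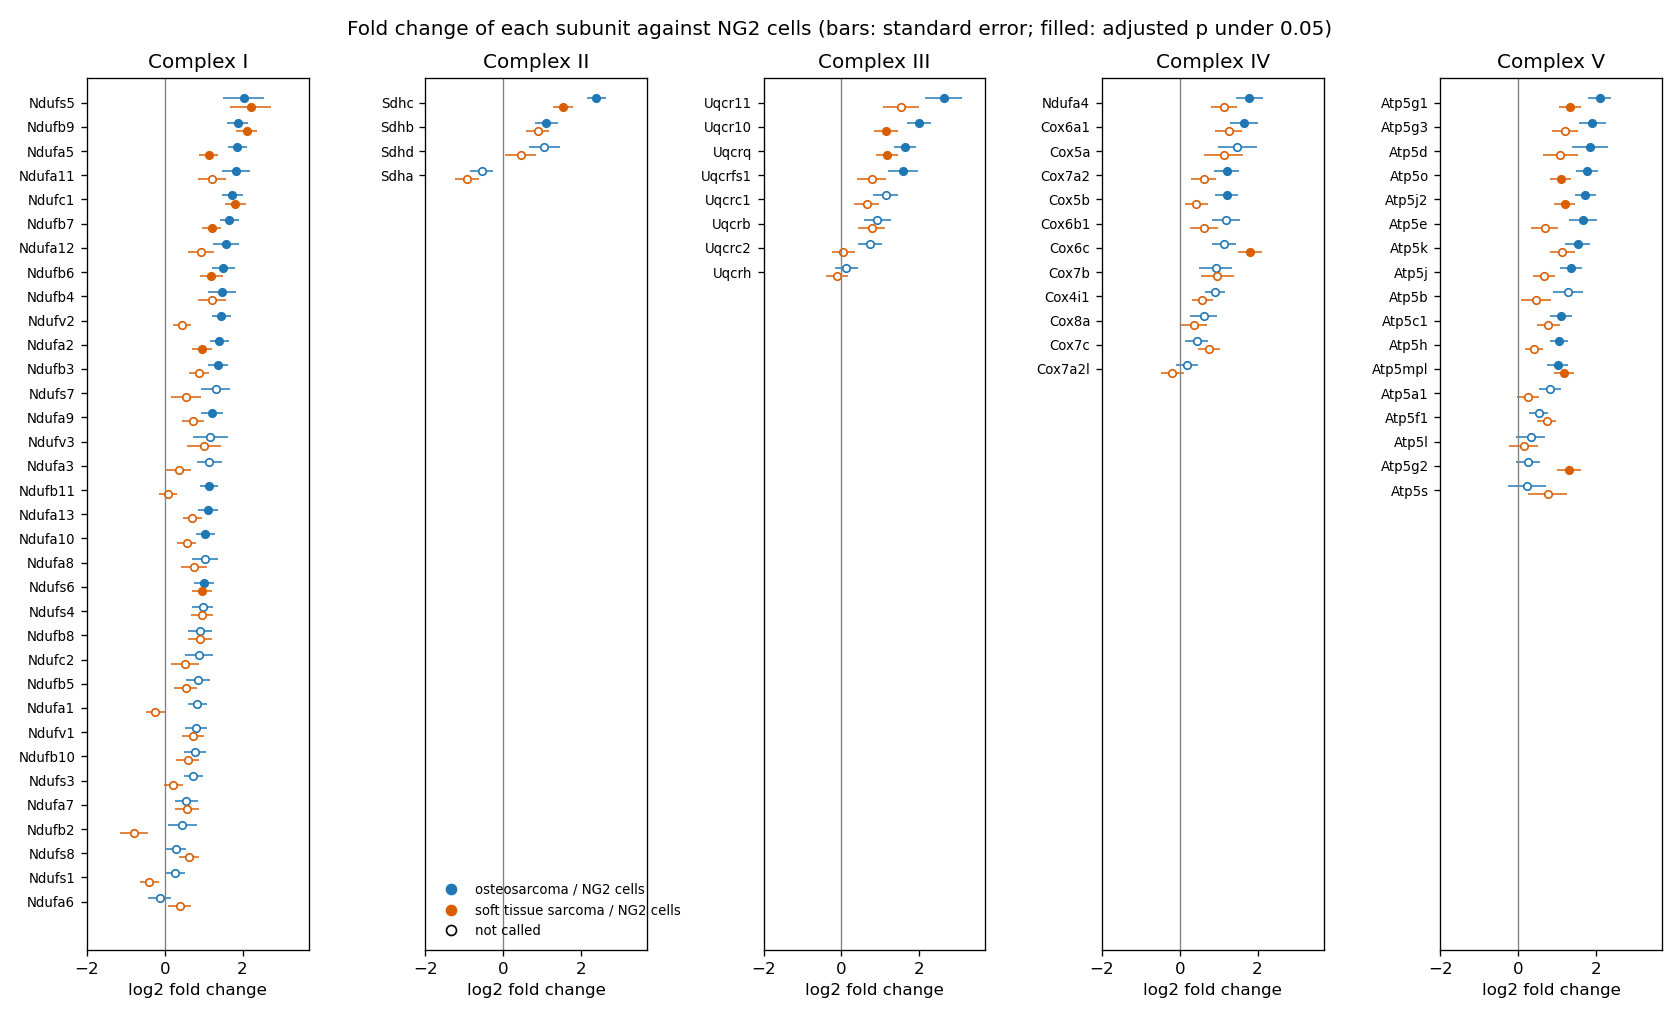
Log2 fold change of tested subunits against NG2 cells in osteosarcoma (blue) and soft tissue sarcoma (orange; the scarce isoforms Cox6a2, Cox6b2, Cox7a1 and Cox8b are left out), by complex and in order of the osteosarcoma value, with bars of 1 standard error and filled points for adjusted p under 0.05. The osteosarcoma values shown run from Sdha at -0.55 to Uqcr11 at 2.64, and the filled points all lie above 0.

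In soft tissue sarcoma, 17 of the 80 tested subunits rose against NG2 cells and 0 fell, where 9.89% of all genes tested were called higher and 9.40% lower. The median change was 0.75 (1.68-fold) against 0.00 over all genes tested, and 71 of 80 members had a value above 0. Both soft tissue sarcoma libraries lay above both NG2 cell libraries in 65 members and below in 5, where 35.8% and 34.6% of all genes did so. The members that rose were 8 of complex I, 1 of complex II (Sdhc), 2 of complex III (Uqcr10 and Uqcrq), 1 of complex IV (Cox6c) and 5 of complex V. This comparison uses the same NG2 cell libraries as that of osteosarcoma, so the values of both are given side by side and the likeness between them is not a separate result. The count was 0 without NG2 cell replicate 1 or 2, where 1.86% and 1.68% of all genes were called higher. It was also 0 without either soft tissue sarcoma library, where 0 of all genes were called, so those fits show nothing about the members. It was 29 and 27 without osteosarcoma replicate 1 or 2 (11.5% and 11.3% of all genes) and 31 with only the 2 groups in the model (14.7%). The median stayed between 0.73 and 0.84 with each library left out in turn.

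The largest value in soft tissue sarcoma was that of Ndufs5, at 2.21 ± 0.53 (edgeR adjusted p = 0.0381), beside 2.03 ± 0.52 in osteosarcoma. Ndufb9 was at 368 and 427 CPM in the soft tissue sarcomas, 4.33-fold above NG2 cells (log2 2.11 ± 0.27, edgeR adjusted p = 0.0108), and had the smallest adjusted p there. Ndufc1 stood at 110.5 and 122 CPM in the NG2 cells and 418 and 398 CPM in the soft tissue sarcomas, a 3.51-fold rise (edgeR adjusted p = 0.0134). Ndufa5 rose 2.19-fold, Ndufb7 2.301-fold, Ndufb6 2.29-fold, Ndufs6 1.94-fold and Ndufa2 1.93-fold, which completes the calls of complex I. All are accessory subunits. Of the core subunits, Ndufs1 measured 59.9 and 52.2 CPM in the soft tissue sarcomas, below both NG2 cell libraries (log2 -0.40 ± 0.25, not called). Ndufa1 and Ndufb2, accessory subunits, also lay below the NG2 cells in both libraries, at log2 -0.25 ± 0.24 and -0.78 ± 0.36, without a call. In complex III Uqcr10 rose 2.22-fold and Uqcrq 2.24-fold, while Uqcr11 was not called (log2 1.53 ± 0.46, edgeR adjusted p = 0.0643).

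Cox6c, a small subunit of complex IV, was the one member of that complex that rose in soft tissue sarcoma. It stood at 224 and 179.7 CPM in the NG2 cells, 354 and 529 CPM in the osteosarcomas and 648 and 767 CPM in the soft tissue sarcomas, with the soft tissue sarcomas above the osteosarcomas and those above the NG2 cells. Its rise was 3.504-fold (log2 1.81 ± 0.32, edgeR adjusted p = 0.0185), beside a value of 1.13 ± 0.31 in osteosarcoma that was not called (adjusted p = 0.0507). A processed pseudogene named Cox6c2 held 4155 reads over all libraries, and how reads common to both copies were counted is not given in the sources used here. In complex V, Atp5g1, Atp5g2, Atp5j2, Atp5o and Atp5mpl rose. Atp5mpl, a small proteolipid of the membrane part, measured 71.4 and 60.7 CPM in the NG2 cells and 147 and 152 CPM in the soft tissue sarcomas (2.26-fold, edgeR adjusted p = 0.0333). Atp5a1 and Atp5b had log2 values of 0.26 ± 0.28 and 0.45 ± 0.38 and were not called.

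**Figure D4:**
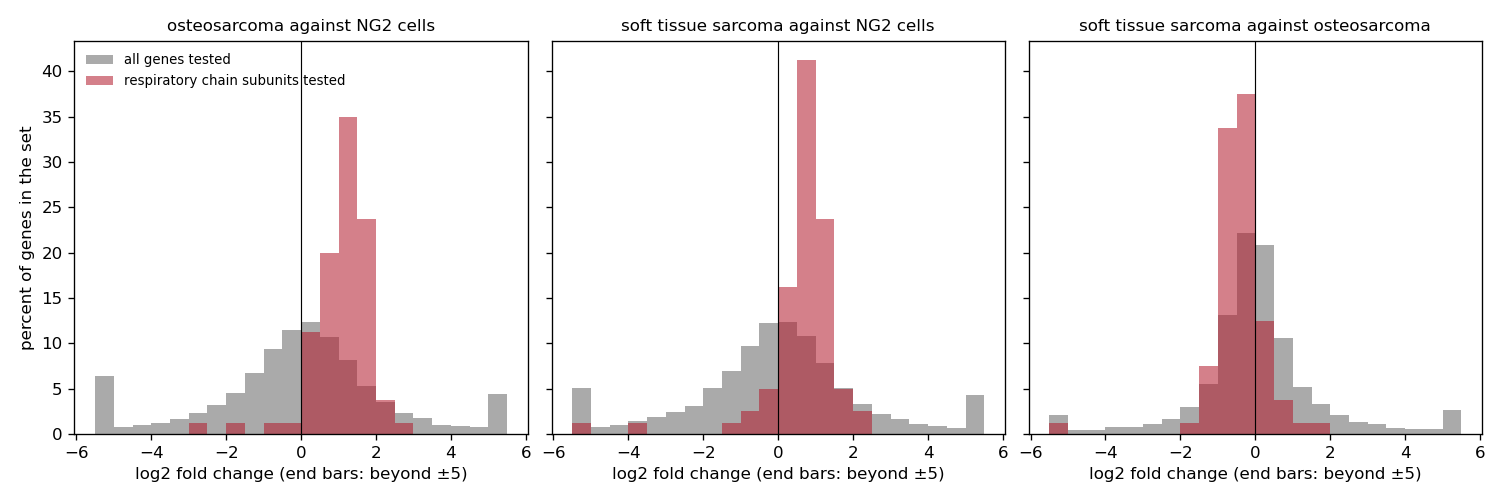
Distribution of log2 fold changes of the 80 tested subunits (red) and of all 19024 genes tested (grey) in the 3 comparisons, in bins of 0.5, as a percent of each set; the end bars hold values beyond 5 in either direction. The subunits centre on 1.13, 0.75 and -0.47 and all genes near 0, and few subunits reach the tails of the grey bars.

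Between the tumour types no member was called by edgeR in either direction, where 0.0841% of all genes tested were called higher in soft tissue sarcoma and 0.0578% lower. An unadjusted p under 0.05 was found for 16 members, and DESeq2 called 1 higher and 7 lower, among 1146 and 783 of 17961 genes in all. The median value was -0.47 for soft tissue sarcoma against osteosarcoma, with both soft tissue sarcoma libraries above both osteosarcomas in 8 members and below in 41, where 25.8% and 24.5% of all genes did so. Without osteosarcoma replicate 2, the median was -0.19 and 31 members instead of 15 had a value above 0. That library had the highest sums of muscle fibre and of macrophage and osteoclast markers among all libraries. The part of those cells in the shift was not tested. Ndufb11 had the smallest p. This accessory subunit of complex I, encoded on the X chromosome, stood at 120.2 and 127 CPM in the NG2 cells, 271 and 271 CPM in the osteosarcomas and 134 and 128 CPM in the soft tissue sarcomas, with the soft tissue sarcomas near the NG2 cells and the osteosarcomas apart from both (log2 -1.05 ± 0.23 for soft tissue sarcoma against osteosarcoma, edgeR adjusted p = 0.133). Ndufa1, also X-linked, was at 138 and 148 CPM in the NG2 cells, 236 and 276 CPM in the osteosarcomas and 117 and 125 CPM in the soft tissue sarcomas (log2 -1.08 ± 0.24, edgeR adjusted p = 0.134). Cox7b, the third X-linked member, had a value of 0.05 ± 0.43. Ndufv2 (-1.01 ± 0.24) and Sdhc (-0.86 ± 0.24) were lower in both soft tissue sarcomas than in both osteosarcomas. The members with both soft tissue sarcomas above both osteosarcomas were Ndufa6, Ndufs8, Cox6b2, Cox6c, Cox7c, Atp5f1, Atp5g2 and Atp5s. Atp5g2 had the largest of these values outside the scarce isoform Cox6b2 (log2 1.06 ± 0.31, edgeR adjusted p = 0.199).

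The muscle and testis isoforms of complex IV among the members were scarce beside the common isoforms, at or under 19.7 CPM in all libraries. Cox6a2, the heart and muscle isoform, was at 19.7 and 3.46 CPM in the NG2 cells, 0.152 and 6.79 CPM in the osteosarcomas and 1.49 and 0.438 CPM in the soft tissue sarcomas, beside Cox6a1, the common isoform, at 164 and 119.9 CPM in the NG2 cells, 325 and 563 CPM in the osteosarcomas and 324 and 354 CPM in the soft tissue sarcomas. Cox7a1, the muscle isoform of the Cox7a pair, was at 3.602 and 1.65 CPM in the NG2 cells, 2.03 and 16.4 CPM in the osteosarcomas and 3.32 and 5.66 CPM in the soft tissue sarcomas, against 148 and 173 CPM in the NG2 cells and 295 and 447 CPM in the osteosarcomas for Cox7a2. Cox8b, the muscle isoform of Cox8, held 0.693 CPM in NG2 cell replicate 1, 1.74 CPM in osteosarcoma replicate 2, 0.0758 CPM in osteosarcoma replicate 1 and 0 in the other 3 libraries. None of these isoforms was called in any comparison. Osteosarcoma replicate 2 had the highest Cox7a1 and Cox8b, and it also had the highest Acta1, Ttn and Ckm, genes of the muscle fibre, at 859, 270 and 12.8 CPM. In NG2 cell replicate 1, which had the highest Cox6a2, they stood at 65.2, 16.2 and 3.60 CPM. The testis isoform Cox6b2 was at 1.03 and 7.04 CPM in the NG2 cells, 0.531 and 0.853 CPM in the osteosarcomas and 2.79 and 1.21 CPM in the soft tissue sarcomas. Of the 8 spermatogenic marker genes only Ldhc and Gapdhs passed the filter, and the sum of all 8 was 0.417 to 3.03 CPM. The part of fibre RNA in the muscle isoforms was not tested. Cox4i2, the isoform of Cox4i1 that the rule leaves out, was at 2.99 and 2.91 CPM in the NG2 cells, 79.95 and 25.8 CPM in the osteosarcomas and 3.61 and 5.83 CPM in the soft tissue sarcomas and rose 17.9-fold in osteosarcoma (edgeR adjusted p = 0.0138). Ndufa4l2, also left out, was at 8.34 and 4.72 CPM in the NG2 cells, 1.93 and 5.87 CPM in the osteosarcomas and 13.6 and 40.5 CPM in the soft tissue sarcomas and was not called.

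**Figure D5:**
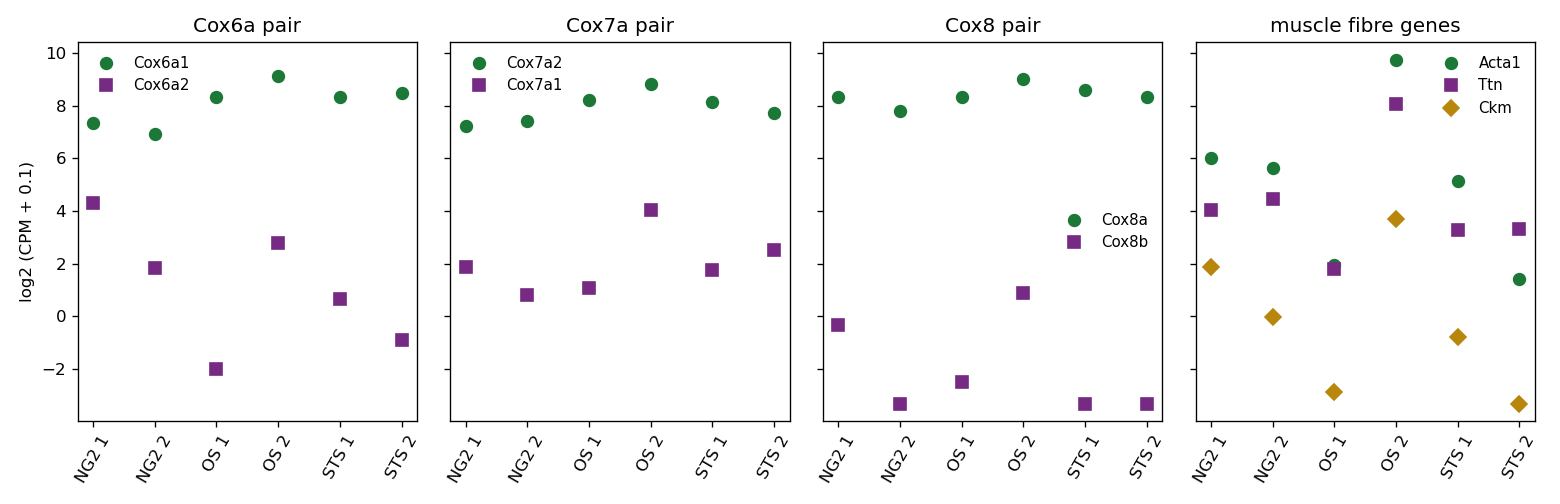
Log2 of CPM + 0.1 in each library for 3 isoform pairs of complex IV (common isoform as circles, muscle isoform as squares) and for 3 muscle fibre genes. The common isoforms lie above the muscle isoforms in every library, and osteosarcoma replicate 2 is highest for Cox7a1, Cox8b, Acta1, Ttn and Ckm.

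Levels can be compared between genes only per length. Per kilobase of all annotated exons, averaged over the groups, the highest members were Uqcr10 (728 CPM per kb) in complex III, Cox8a (562) in complex IV, Ndufa2 (430.1) in complex I, Atp5k (338) in complex V and Sdhb (180.2) in complex II. The next highest were Ndufa1 and Ndufb9, Sdhd and Sdha, Uqcr11 and Uqcrq, Cox6b1 and Cox6a1, and Atp5a1 and Atp5c1. Per kilobase of the principal transcript, Uqcr10 (979.9), Cox8a (632) and Sdhb (353) again led their complexes, whereas Ndufa6 (714) led complex I and Atp5e (601) complex V. The leaders of complexes I and V thus depend on the length used, and the order below the leader also changed in complexes III and IV, where Cox6c went from 126 to 610.2 CPM per kb. Sdha was at 62.7 CPM per kb of all exons and 89.2 CPM per kb of the principal transcript, below Sdhb on both scales.

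The genes that assemble or serve the chain were counted in the same comparisons. Of all genes tested, 10.5% and 9.89% were called higher in osteosarcoma and soft tissue sarcoma, and 11.0% and 9.40% lower. Of 14 complex I assembly factors 2 rose in each tumour type and 0 fell (medians 0.60 in osteosarcoma and 0.24 in soft tissue sarcoma). They were Ndufaf8 (2.33-fold and 2.38-fold) and Timmdc1 (3.65-fold and 3.56-fold). Of 33 tested assembly factors of complexes II to V, 4 rose and 1 fell in osteosarcoma (median 0.60), and 2 rose and 0 fell in soft tissue sarcoma (median 0.19). The counts of assembly factors that rose were near or below the shares of all genes tested. Uqcc2, a complex III assembly factor, stood at 38.8 and 34.5 CPM in the NG2 cells, 109 and 267 CPM in the osteosarcomas and 208 and 209.9 CPM in the soft tissue sarcomas and rose 5.13-fold and 5.71-fold (edgeR adjusted p = 0.0211 and 0.0201). Sdhaf4, which assists the flavoprotein of complex II, rose 2.63-fold and 2.51-fold, and Cox11, a copper chaperone of complex IV, fell 4.26-fold in osteosarcoma. Of 18 genes of electron carriers and coenzyme Q synthesis, Cyc1 counted among them, 4 rose and 1 fell in each tumour type (medians 0.62 and 0.44). Cytochrome c (Cycs) rose 1.94-fold in osteosarcoma, and Coq7, an enzyme of coenzyme Q synthesis, rose 2.96-fold and 2.54-fold. Coq10b, a coenzyme Q binding protein, fell 4.34-fold and 3.91-fold. Ndufab1, the acyl carrier subunit of complex I outside the rule, rose 3.12-fold and 2.504-fold.

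Among 18 genes of the TCA cycle and pyruvate dehydrogenase, 2 rose and 0 fell in osteosarcoma (median 0.60), and 3 rose and 1 fell in soft tissue sarcoma (median 0.31). The 2 of 18 in osteosarcoma were near the 10.5% of all genes tested that were called higher. In soft tissue sarcoma 9.89% were called higher, and 11.0% were called lower in osteosarcoma and 9.40% in soft tissue sarcoma. The counts of the lists below stand beside the same shares. Idh2, the mitochondrial NADP-dependent isocitrate dehydrogenase, stood at 19.9 and 27.1 CPM in the NG2 cells, 202 and 186 CPM in the osteosarcomas and 123 and 127 CPM in the soft tissue sarcomas. It rose 8.24-fold in osteosarcoma (edgeR adjusted p = 0.00544) and 5.31-fold in soft tissue sarcoma (adjusted p = 0.00926). Suclg1, a subunit of succinate-CoA ligase, rose 2.81-fold and 1.82-fold, and Ogdh, a subunit of the 2-oxoglutarate dehydrogenase complex, fell 2.200-fold in soft tissue sarcoma. Of 20 mitochondrial translation genes 8 rose and 1 fell in osteosarcoma (median 0.98), and 4 rose and 0 fell in soft tissue sarcoma (median 0.59), led by Mrpl12, a protein of the large mitochondrial ribosomal subunit (4.44-fold and 3.03-fold). A further list held carriers, channels, the ATPase inhibitor and the aldehyde oxidase Aox1. Of 10 tested genes on it, 4 rose and 0 fell in each tumour type (medians 0.43 and 0.86). Slc25a4, an ADP/ATP carrier, rose 2.18-fold and 3.34-fold, Vdac1, the outer membrane channel, 3.24-fold and 3.02-fold, and Atpif1, the ATP synthase inhibitor, 3.39-fold and 3.21-fold. Of 8 antioxidant genes of mitochondria, 2 rose in each and 0 fell (Txn2 and Glrx2; medians 0.59 and 0.81).

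The mitochondrially encoded subunits were not called in osteosarcoma (0 of 12 tested, median -0.25), and 2 of 12 fell in soft tissue sarcoma (median -0.89). Of all genes tested, 11.0% were called lower in osteosarcoma and 9.40% in soft tissue sarcoma. mt-Co1, the catalytic subunit of complex IV, stood at 8066 and 6359.7 CPM in the NG2 cells, 4099 and 5171 CPM in the osteosarcomas and 3076 and 3329 CPM in the soft tissue sarcomas. It fell 2.25-fold in soft tissue sarcoma (log2 -1.17 ± 0.29, edgeR adjusted p = 0.0422). mt-Nd2, a core subunit of complex I, fell 2.32-fold there (edgeR adjusted p = 0.0453). mt-Co2, mt-Co3, mt-Atp6, mt-Atp8 and mt-Nd4l were at or under 5.26 CPM in all libraries, so the sum rests on the 8 others. How the authors' counting treated reads that match several places is not given in the sources used here.

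The nuclear genes that regulate respiration and maintain or transcribe mitochondrial DNA had median values below 0. Of 19 tested, 1 rose and 2 fell in osteosarcoma (median -0.81), and 0 rose and 2 fell in soft tissue sarcoma (median -0.65). The counts that fell were near the share of all genes tested called lower, 11.0% in osteosarcoma and 9.40% in soft tissue sarcoma. Polg2, the accessory subunit of the mitochondrial DNA polymerase, was at 56.1 and 85.05 CPM in the NG2 cells, 9.002 and 5.19 CPM in the osteosarcomas and 10.4 and 6.94 CPM in the soft tissue sarcomas and fell 9.93-fold and 8.12-fold (edgeR adjusted p = 0.0102 and 0.0142). Ppargc1a, a coactivator that promotes mitochondrial biogenesis, was at 8.62 and 4.10 CPM in the NG2 cells, 0 in both osteosarcomas, 0.235 CPM in soft tissue sarcoma replicate 1 and 0 in replicate 2. It fell in osteosarcoma (edgeR adjusted p = 0.0343). Tfam, which packages and transcribes mitochondrial DNA, was at 143 and 67.5 CPM in the NG2 cells, 32.2 and 46.5 CPM in the osteosarcomas and 32.5 and 28.5 CPM in the soft tissue sarcomas and fell 3.46-fold in soft tissue sarcoma (edgeR adjusted p = 0.0393). Polrmt, the mitochondrial RNA polymerase, rose 2.97-fold in osteosarcoma. Values above 0 were found for 8 of the 19 in osteosarcoma and 6 in soft tissue sarcoma. Among those not called, Ppargc1b was at 3.93 and 5.57 CPM in the NG2 cells, 14.8 and 33.7 CPM in the osteosarcomas and 1.91 and 0.809 CPM in the soft tissue sarcomas. Its log2 values were 2.35 ± 0.67 and -1.79 ± 0.66. Esrra, at or under 7.68 CPM in all libraries, had log2 values of 3.37 ± 0.94 and 2.09 ± 0.89 and was not called. The transcription factors Nrf1 (log2 -0.96 ± 0.37 and -1.11 ± 0.37), Gabpa (-0.81 ± 0.30 and -0.55 ± 0.29) and Yy1 (-1.23 ± 0.37 and -0.73 ± 0.36), which are known to act on promoters of respiratory chain genes, were not called in either tumour type.

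Since many members moved the same way, their promoters were searched for the letters of sites known for these 3 factors. RefSeq start sites of GRCm38.p6 gave windows of 300 bases (250 before the start and 50 after) for 66 of the 82 members and for 17491 protein-coding genes in all. The string GCGCATGCG (NRF1), on either strand, was in the windows of 8 members (12.1%) and of 2.61% of all protein-coding genes, and AAGATGGCG (YY1) in 7 members (10.6%) and 2.14% of all. CCGGAAGT (GABPA and other ETS factors) was in 5 members (7.58%) and 5.69% of all. Each string was searched on its own, and sites on both strands that overlap count once per gene. At least 1 of the strings was present in 10 of 33 members that rose in osteosarcoma (30.3%) and in 9 of 32 that were not called (28.1%). The 250 bases before the start are shown for 4 members that rose in osteosarcoma and hold a string there, chosen after their values were seen. They were Uqcr11 with the largest rise, and 1 each of complexes I, V and IV with the NRF1 string in these bases. The window of 300 bases of Uqcr11 also held the NRF1 string, though not within the 250 bases shown. Capitals mark the match, extended where the string lies on both strands.
Uqcr11, chr10:80406822-80407071, minus strand: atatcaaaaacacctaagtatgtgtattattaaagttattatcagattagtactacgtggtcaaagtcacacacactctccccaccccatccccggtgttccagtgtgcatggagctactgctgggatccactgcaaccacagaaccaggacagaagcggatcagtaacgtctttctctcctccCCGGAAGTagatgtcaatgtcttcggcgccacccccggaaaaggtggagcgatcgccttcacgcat
Ndufa11, chr17:56717512-56717761, plus strand: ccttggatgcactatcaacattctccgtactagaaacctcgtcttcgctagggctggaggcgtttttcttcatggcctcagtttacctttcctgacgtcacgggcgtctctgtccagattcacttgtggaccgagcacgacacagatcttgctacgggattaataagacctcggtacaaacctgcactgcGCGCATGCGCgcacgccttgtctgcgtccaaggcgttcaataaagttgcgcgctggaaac
Atp5k, chr5:108434400-108434649, minus strand: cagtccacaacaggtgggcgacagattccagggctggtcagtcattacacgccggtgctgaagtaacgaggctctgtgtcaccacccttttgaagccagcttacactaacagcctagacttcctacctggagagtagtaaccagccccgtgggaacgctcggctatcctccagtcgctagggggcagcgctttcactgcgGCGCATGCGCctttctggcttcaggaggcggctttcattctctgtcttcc
Cox6a1, chr5:115348959-115349208, minus strand: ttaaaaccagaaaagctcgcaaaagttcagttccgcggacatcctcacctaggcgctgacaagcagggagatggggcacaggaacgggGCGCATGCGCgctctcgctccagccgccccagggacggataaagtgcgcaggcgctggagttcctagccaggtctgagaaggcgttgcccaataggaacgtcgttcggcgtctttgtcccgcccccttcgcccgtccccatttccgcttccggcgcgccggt
The ETS string begins 66 bases before the start of Uqcr11, and the NRF1 string begins 60 bases before that of Ndufa11, 50 before that of Atp5k and 162 before that of Cox6a1. In the last 3 the capitals read the same on both strands. A match of letters is a description and not a measured site.

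Counts of some members could include reads of a neighbour. The strand setting of the authors' counting is not given in the sources used here, and 18 members share more than 5% of their exon bases with a gene on the opposite strand, among them 8 of those that rose in osteosarcoma and 4 of those that rose in soft tissue sarcoma. The largest shares were 39.0% for Ndufb6, 35.6% for Atp5o and 30.0% for Ndufa13.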

How the data were processed

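Polyadenylated RNA of 6 libraries was copied with SMART template switching and amplified in 20 PCR cycles, per the labels' protocols, and the authors deposited raw read counts per Ensembl gene, which were used as they are. The tools listed in the submitters' processing notes are STAR, HTSeq, DESeq2, FastQC, cutadapt and Trim Galore, with the build given as GRCm38 and mm10; versions, strand setting and annotation release are not given in the sources used here. Symbols, exon lengths and positions came from GENCODE M21. Reads assigned to no gene (19.5 to 33.2%) and ambiguous reads (2.57 to 3.22%) were left out of library sizes.

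Counts were tested with edgeR 4.0.16 in R 4.3.3: TMM scaling, filterByExpr (min.count 10, min.total.count 15), 1 model of 3 groups without covariates, quasi-likelihood F tests, Benjamini-Hochberg adjustment over 19024 genes and a threshold of 0.05. The standard error is the log2 fold change over the square root of F. The model had 3 residual degrees of freedom and a biological coefficient of variation of 0.578. An exact permutation test of 2 against 2 cannot go below 0.333. The script was tested on simulated data. DESeq2 1.42.0, RLE and upper quartile scaling, no filter, only the groups compared, no immunoglobulin genes, a replicate block and each library left out were the alternatives chosen at the outset, and library size alone and the length of the principal transcript were added after seeing the data. The text names members by rule: those called (up to 24 per comparison), the isoform sets and core subunits, the extremes of each comparison, and the 3 highest per length in each complex. The members and gene lists were chosen with earlier results of these data known, so they are described by counts and medians beside all genes tested. Amplified reads are not independent molecules, so depth limits only the counting error. Of the members, 1 was counted in the totals and is not reported here by itself.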

Additional observations from a re-analysis of the deposited data

How the results depend on the processing

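The direction of the members' medians held under every alternative tried. In osteosarcoma against NG2 cells the median was 0.89 to 1.36 with single libraries left out (lowest without osteosarcoma replicate 2, highest without replicate 1), and in soft tissue sarcoma against osteosarcoma it was -0.62 to -0.19, the last without osteosarcoma replicate 2. The number of calls was less stable, as was the share of all genes called, and the cause was not tested. In osteosarcoma against NG2 cells 39 members were called higher. The count was 11 with only the 2 groups compared in the model (4.5% of all genes called higher), 3 to 47 with single libraries left out (2.80 to 7.76%) and 51 by DESeq2 (17.4%), while 0 were called lower by any alternative. In soft tissue sarcoma against NG2 cells 17 were called higher. The count was 30 by DESeq2 (17.0% of all genes called higher), 31 with only the 2 groups compared (14.7%), 27 with library size alone (11.6%) and 0 to 29 with single libraries left out (0 to 11.5%). There 2 members were called lower by DESeq2, 1 with only the 2 groups compared, and 0 to 1 with single libraries left out. Between the tumour types DESeq2 called 1 member higher and 7 lower, and the other alternatives 0. Library size alone moved the median of all genes from 0.04 to 0.13 in osteosarcoma and from 0.00 to 0.15 in soft tissue sarcoma against NG2 cells, and the members' medians to 1.23 and 0.90. Replicate numbers are shared between groups only as numbers, and the check of pairing gave correlations of deviations of 0.0827 (NG2 cells and osteosarcoma), -0.0245 (NG2 cells and soft tissue sarcoma) and -0.113 (the tumour types), so no pairing was used. With the replicate block 23 members were called higher in osteosarcoma (6.55% of all genes) and 4 in soft tissue sarcoma (5.81%) against NG2 cells, and 0 between the tumour types. With 2 libraries a group, a call that is lost says little about the size of the change.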
